A study of Mus musculus with 6 samples.

Results

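The LIF/CNTF receptor and JAK-STAT3 genes described here are 10 genes, *Lif*, *Lifr*, *Cntfr*, *Osmr*, *Il6st*, *Jak1*, *Jak2*, *Stat3*, *Socs2* and *Socs3*, found by gene name among the 53379 genes of the deposited RNA-seq table. They were measured in neural stem cells (NSCs), the progenitors of cortical neurons and glia, grown as neurospheres from E14.5 mouse cortex. All cells were *Tbl1xr1* flox/flox, so both groups carried the floxed gene, which encodes a subunit of the NCOR corepressor complexes. One lentivirus delivered Cre recombinase together with GFP and the other delivered GFP alone as the control, and the infected cells were sorted by GFP. Each group has 3 libraries, replicates 1, 1_1 and 2 of the control and replicates 2, 2_2 and 3 of the cells labelled Cre. Both groups grew with bFGF and EGF, and neither LIF nor CNTF is among the medium additions that the labels name for this culture. The labels do not say which embryos the replicates came from, or whether 1 and 1_1, or 2 and 2_2, share a culture, so p-values measure the spread between these libraries, which may be technical.

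LIF and CNTF belong to the interleukin-6 family of cytokines, whose receptors share the signalling subunit gp130, the product of *Il6st*. LIF binds the receptor chain LIFR, CNTF first binds CNTFR and then gathers LIFR and gp130, and OSMR pairs with gp130 to bind oncostatin M. The kinases JAK1 and JAK2 sit on these receptors and phosphorylate STAT3, which moves to the nucleus and turns on genes that include *Socs3*, the gene of an inhibitor that shuts the receptor off again. In the developing cortex this pathway is best known for moving progenitors towards astrocytes, and *Gfap*, the gene of an astrocyte filament, is its classical target.

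The promoters of *Socs3* and *Gfap* are shown because both genes are read as outputs of STAT3 and their reads are described below. Each sequence is the RefSeq window of GRCm38.p6 from 250 bases before to 50 bases after the transcription start, written 5′ to 3′ along the gene, with the match to the STAT motif TTCNNNGAA in capitals. The *Socs3* window is chr11:117969317-117969616 on the minus strand, with the match starting at position -154 from the transcription start. The *Gfap* window is chr11:102897151-102897450 on the minus strand, with the match starting at position -2.
Socs3: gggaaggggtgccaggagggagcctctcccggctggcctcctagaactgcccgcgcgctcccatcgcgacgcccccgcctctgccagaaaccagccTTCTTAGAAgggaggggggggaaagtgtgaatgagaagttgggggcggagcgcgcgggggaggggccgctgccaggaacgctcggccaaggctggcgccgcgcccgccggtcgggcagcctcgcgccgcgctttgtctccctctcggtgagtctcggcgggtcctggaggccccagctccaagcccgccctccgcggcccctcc
Gfap: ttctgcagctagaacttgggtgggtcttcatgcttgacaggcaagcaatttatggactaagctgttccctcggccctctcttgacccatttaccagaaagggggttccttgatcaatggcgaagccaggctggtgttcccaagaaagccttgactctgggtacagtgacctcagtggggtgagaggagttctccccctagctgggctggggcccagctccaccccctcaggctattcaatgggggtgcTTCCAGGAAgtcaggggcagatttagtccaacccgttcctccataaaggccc
The motif is its own reverse complement, so 1 search covered both strands. It occurred in 2726 of 32851 RefSeq promoter windows of this length (8.30%). Of the 10 genes described here 9 had an entry, with 15 windows in all, and the *Socs3* window was the 1 window with a match. Among the genes listed below as STAT3 targets that had an entry, *Icam1* was the only gene with a match besides *Gfap*. *Cebpd*, *Myc* and *Ccnd1* of that list had no entry and were not searched. The windows of *Junb*, *Fos*, *Pim3*, *Timp1* and *Serpina3n*, among others, held none. A match is a description of these letters and not a measured binding site. Sequence outside these windows was not searched, so STAT sites further from the start would be missed.

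The targeted gene, *Tbl1xr1* (ENSMUSG00000027630, GRCm38.p6 chr3:22076253-22216594), was not lower in the libraries labelled Cre. It had 2522, 2190 and 2721 normalized counts in control libraries 1, 1_1 and 2 against 3774, 3463 and 2905 in Cre replicates 2, 2_2 and 3, and the groups did not overlap. A normalized count is a read count divided by 1 size factor per library. The log2 fold change, libraries labelled Cre minus control on log2(normalized count + 1) as for every fold change below unless reads are named, was 0.45 (limma, Benjamini-Hochberg adjusted p = 0.06, and 0.0216 to 0.211 over 16 alternative settings). Counts over the whole gene do not measure the floxed exon alone. All directions are therefore those of the libraries labelled Cre. Neural stem cell markers were present, with 10 of 10 above the limit for testing. Of these 0 were called higher and 1 lower, a share near the 9.96% of all tested genes called. By log2 fold change, 7 were above 0 and 3 under it, with a median of 0.23. The 1 called was *Nes*, a filament gene of neural progenitors, lower in the libraries labelled Cre (log2 fold change -0.85, limma adjusted p = 0.00384). Of other cell types that use these receptors, the microglial genes *Tmem119* and *Itgam* had at most 0.69 normalized counts in any library, and the 7 listed microglial markers summed to 164 to 206 in control against 168 to 274 in the libraries labelled Cre, nearly all of it *Csf1r*. The endothelial genes *Cdh5* and *Cldn5* and the mural gene *Pdgfrb* were listed at 0 throughout. The 5 endothelial markers summed to 26.7 to 40.4 in control against 14.3 to 19.4 in the libraries labelled Cre, and the 6 mesenchymal markers to 2.75 to 7.31 and 4.16 to 21.5. The 7 neuronal markers summed to 9252 to 9470 and 10104 to 11329, mostly *Map2*, with *Stmn2* listed at 0. Every library labelled Cre was deeper (11893230 to 14828100 reads on genes) than every control library (7510615 to 11161497), so 1 read was worth 0.693 to 0.895 and 0.918 to 1.46 normalized counts.

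*Lifr*, *Il6st*, *Cntfr*, both kinase genes and *Stat3* were expressed in both groups, and none of the 10 genes passed the test for a difference. A mean of at least 10 normalized counts was needed for testing, which 7 of the 10 reached, and *Lif*, *Osmr* and *Socs3* did not. Of the 7, 0 were called higher and 0 lower at an adjusted p under 0.05, against 9.96% of the 14840 genes tested. At an unadjusted p under 0.05 there were also 0, and edgeR and DESeq2 on the recovered reads called 0 each. The control and Cre-labelled ranges overlapped for all 7, whereas 30.3% of all tested genes had ranges that did not overlap. The 7 log2 fold changes ran from -0.04 to 0.47 with a median of 0.16, 6 of them above 0, beside a median of -0.001 over all tested genes. A missed threshold does not show equal levels, and the 95% interval of each difference is given with the gene. In bulk RNA, fewer cells expressing a gene and less RNA per cell cannot be told apart.

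**Figure D1:**
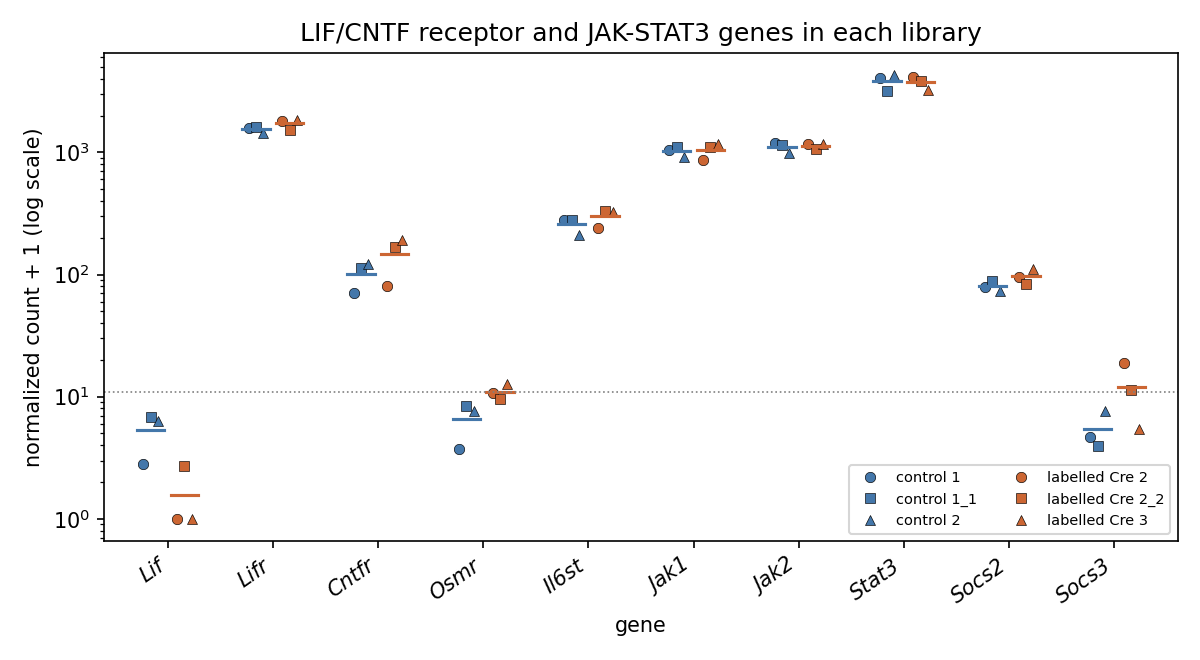
Normalized count plus 1 (log scale) of the 10 genes in each library, with control libraries in blue, libraries labelled Cre in orange, the symbol shape giving the replicate, and a bar at each group mean. The dotted line is a normalized count of 10, the limit for testing. The 7 tested genes overlap between the groups. *Lif*, *Osmr* and *Socs3* lie near the line or under it, apart from *Socs3* in Cre replicate 2, which is above it at 18.0.

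*Lifr* (ENSMUSG00000054263, chr15:7090610-7197489) encodes the chain that LIF binds and that CNTF also needs (coordinates here and below are those of GRCm38.p6). It had 1572, 1612 and 1435 normalized counts in control libraries 1, 1_1 and 2 against 1810, 1512 and 1847 in Cre replicates 2, 2_2 and 3. Cre replicates 2 and 3 were above every control library, and Cre replicate 2_2 lay inside the control range. The means were 1540 ± 92.8 and 1723 ± 184 (SD, n = 3 each), and the log2 fold change was 0.16 (limma adjusted p = 0.461, standard error 0.12). The 95% interval reached from a fold of 0.927 to 1.34, and 6.98% of the tested genes had a narrower one.

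*Il6st* (ENSMUSG00000021756, chr13:112464070-112506860), the gene of gp130, was read at 281, 279 and 211 normalized counts in control against 241, 330 and 327 in the libraries labelled Cre. Again 2 libraries labelled Cre, 2_2 and 3, stood above the control range and the other, replicate 2, inside it. The means were 257 ± 40.1 and 299 ± 50.4 (SD, n = 3 each), a fold of 1.16 with an interval of 0.884 to 1.53 (limma adjusted p = 0.495).

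*Cntfr* (ENSMUSG00000028444, chr4:41657498-41697091) encodes the chain that binds CNTF and has no signalling tail of its own. It had 69.7, 113 and 120 normalized counts in control against 79.6, 166 and 189 in the libraries labelled Cre. The lowest library of each group, control replicate 1 and Cre replicate 2, stood well under the other two of its group. The means were 101 ± 27.1 and 145 ± 57.7 (SD, n = 3 each), and the log2 fold change of 0.47 was the largest of the 7 (limma adjusted p = 0.403, standard error 0.32). Its interval was the widest, from a fold of 0.847 to 2.25. Single libraries decided this value: without Cre replicate 2 it was 0.85 (adjusted p = 0.0329), the 1 call of any of the 7 genes in any alternative, and without control replicate 1 it was 0.22 (adjusted p = 0.785), without Cre replicate 2_2 0.32 (0.682) and without Cre replicate 3 0.23 (0.711). The neuronal tubulin gene *Tubb3* was also lowest in these libraries. It had 26.6, 62.9 and 100 normalized counts in control against 24.2, 86.1 and 109 in the libraries labelled Cre. The other listed neuronal markers did not share 1 order. *Syt1* was lowest of its group in both libraries, *Snap25* was highest of its group in both, and *Map2*, *Dcx* and *Rbfox3* were not lowest in both. These markers were looked at after their values were seen, and their part in the *Cntfr* values was not tested.

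**Figure D2:**
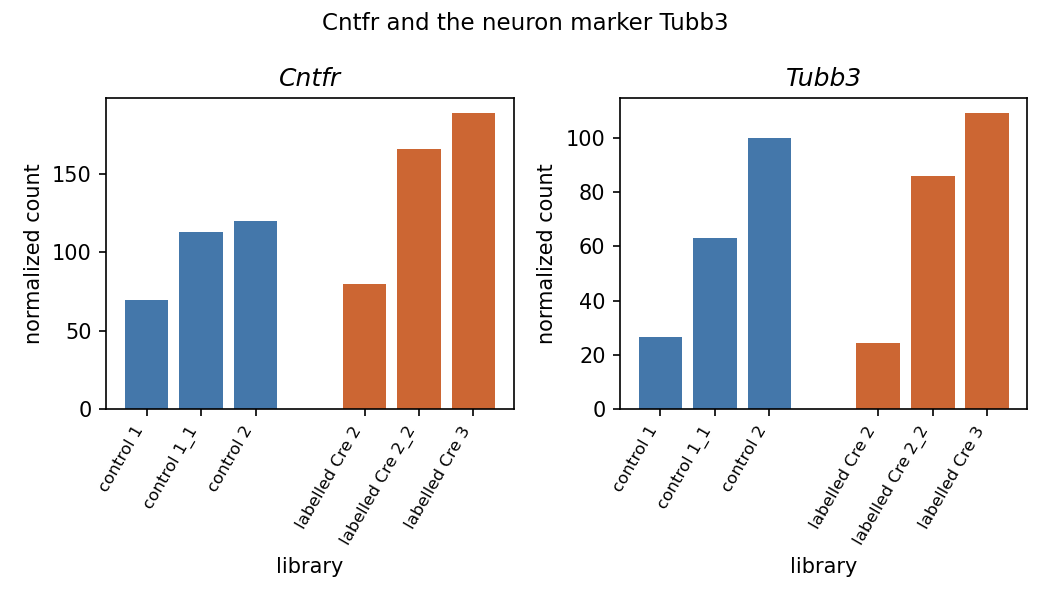
Normalized counts of *Cntfr* and of the neuronal marker *Tubb3* in each library, as bars from 0, with control in blue and libraries labelled Cre in orange. Within each group, *Cntfr* and *Tubb3* are lowest in control replicate 1 and Cre replicate 2, at 69.7 and 79.6 for *Cntfr* and 26.6 and 24.2 for *Tubb3*. Other listed neuronal markers, not drawn, did not all share this order.

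Of the 7 tested genes, the kinase genes and *Stat3* had the smallest changes. *Jak1* (ENSMUSG00000028530, chr4:101151974-101265282), the kinase on which gp130 signalling mainly depends, had 1054, 1110 and 920 normalized counts in control against 872, 1110 and 1174 in the libraries labelled Cre. The lowest and the highest of the 6 values were both in the libraries labelled Cre, and the fold was between 0.821 and 1.26 by its 95% interval (log2 fold change 0.03, limma adjusted p = 0.934). *Jak2* (ENSMUSG00000024789, chr19:29251803-29313095), a second kinase of these receptors and the main one of the growth hormone receptor, had 1191, 1140 and 986 in control against 1162, 1069 and 1178 in the libraries labelled Cre. All 3 Cre-labelled values lay within the control range, with a log2 fold change of 0.04 and a fold interval of 0.858 to 1.24 (limma adjusted p = 0.86). Of the tested genes 6.06% had a narrower interval than *Jak2*.

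*Stat3* (ENSMUSG00000004040, chr11:100886806-100939594) had 4091, 3157 and 4281 normalized counts in control against 4117, 3855 and 3236 in the libraries labelled Cre. Each group held 1 low library, control replicate 1_1 and Cre replicate 3, and the spread within each group exceeded the difference of the means, 3843 ± 602 and 3736 ± 453 (SD, n = 3 each). The log2 fold change was -0.04 with a fold interval of 0.78 to 1.22 (limma adjusted p = 0.91). The signs of the *Jak1*, *Jak2* and *Stat3* changes turned when single libraries were left out, within -0.06 to 0.16, -0.04 to 0.10 and -0.17 to 0.06. The exons of *Stat3* share 72 bases, 0.756% of their length, with *Stat5a* on the opposite strand, and the library kit does not keep strand.

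*Socs2* (ENSMUSG00000020027, chr10:95383903-95417321) encodes an inhibitor best known for its action on growth hormone signalling. It had 78.0, 87.8 and 72.0 normalized counts in control against 94.9, 82.6 and 109 in the libraries labelled Cre. Cre replicates 2 and 3 were above the control range and Cre replicate 2_2 was inside it, the same order as for *Lifr*. The means were 79.3 ± 7.95 and 95.6 ± 13.3 (SD, n = 3 each), and the fold of 1.20 had an interval of 0.877 to 1.64 (limma adjusted p = 0.467).

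The ligand *Lif*, the receptor gene *Osmr* and the feedback inhibitor *Socs3* were near the lower limit of detection, and their values are given as reads. *Lif* (ENSMUSG00000034394, chr11:4257568-4272514) had 2, 4 and 4 reads in control against 0, 2 and 0 in the libraries labelled Cre, although these were deeper. In normalized counts the groups did not overlap, with 1.84, 5.85 and 5.33 against 0, 1.72 and 0. Relative to the total reads on genes the summed ratio, libraries labelled Cre over control, was 0.136, with an exact 95% interval of 0.0145 to 0.637 that covers counting error only. Tested with no filter on low values the log2 fold change was -1.83 (limma adjusted p = 0.135, against 5.23% of 27585 genes called), and edgeR with no filter gave an adjusted p of 0.343, against 7.86% called. A fold change at such reads depends on the pseudocount.

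*Osmr* (ENSMUSG00000022146, chr15:6813568-6874968) had 3, 5 and 5 reads in control against 14, 10 and 13 in the libraries labelled Cre, or 2.75, 7.31 and 6.67 against 9.70, 8.61 and 11.6 normalized counts. The groups did not overlap. The summed ratio was 1.93 (1.00 to 3.96, counting error only), and with no filter the adjusted p was 0.564 with limma and 0.586 with edgeR. *Socs3* (ENSMUSG00000053113, chr11:117966079-117970336), whose promoter holds the STAT motif shown above, had 4, 2 and 5 reads in control against 26, 12 and 5 in the libraries labelled Cre. In normalized counts these were 3.67, 2.93 and 6.67 against 18.0, 10.3 and 4.48, so Cre replicates 2 and 2_2 stood above the control range and Cre replicate 3 inside it. Summed over libraries the ratio of *Socs3* reads was 2.65 (1.35 to 5.71, counting error only). The spread between the libraries labelled Cre was as large as this difference, and with no filter the adjusted p was 0.479 with limma and 0.333 with edgeR. Whether depth has a part in these 3 genes was not tested.

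**Figure D3:**
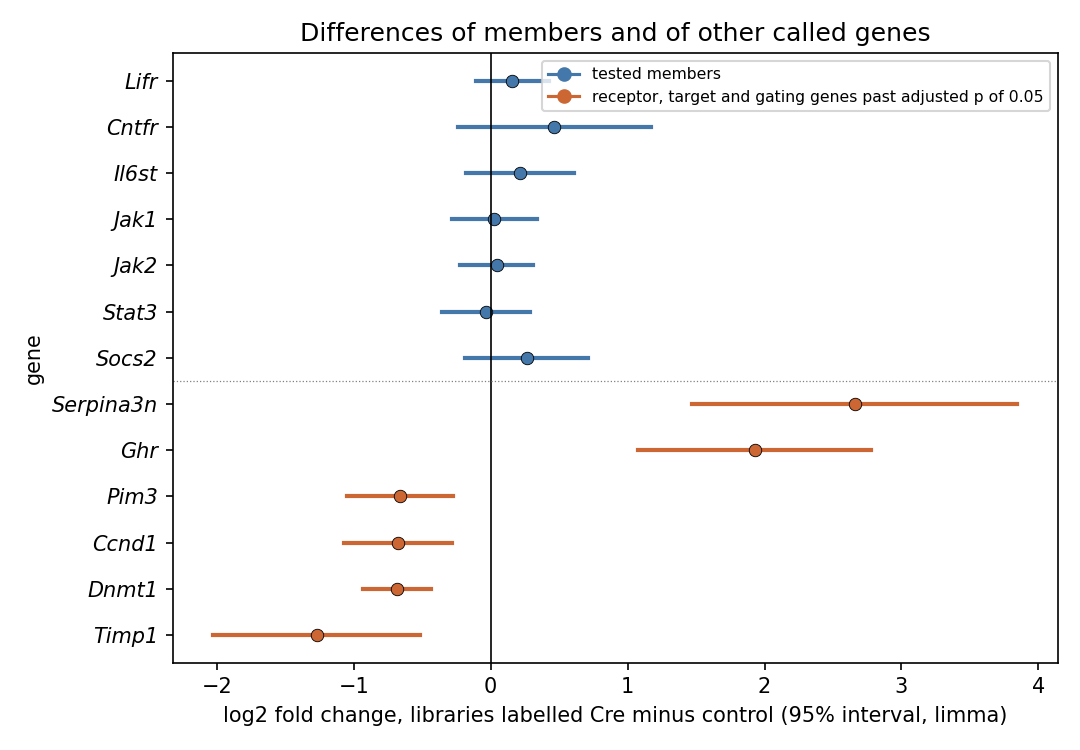
Log2 fold change, libraries labelled Cre minus control, with 95% intervals from limma for the 7 tested LIF/CNTF receptor and JAK-STAT3 genes (blue) and for the receptor, STAT3 target and gating genes past an adjusted p of 0.05 (orange). The blue intervals all cross 0, and *Serpina3n* and *Ghr* lie to the right of 0 and *Pim3*, *Ccnd1*, *Dnmt1* and *Timp1* to the left. *Serpina3n* had at most 2 reads in any control library, so its fitted change depends on the pseudocount.

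Levels of different genes were compared per kilobase of exon, in normalized counts per kb. The length used was the union of all annotated exons of a gene, which can exceed the length of the message these cells make. Orders and ratios between genes depend on these lengths. In control libraries *Stat3* was highest at 403 ± 63.2, followed by *Jak2* at 220 ± 21.3, *Lifr* at 149 ± 8.99 and *Jak1* at 142 ± 13.5 (SD, n = 3 each). *Lifr* and *Jak1* overlapped in range, at 139 to 156 and 127 to 154, and this pair was not compared library by library. *Il6st* at 49.4 ± 7.69 and *Cntfr* at 36.2 ± 9.76 came next and also overlapped. *Socs2* followed at 8.32 ± 0.834, and *Socs3* at 1.53 ± 0.685, *Osmr* at 1.15 ± 0.51 and *Lif* at 0.998 ± 0.502 shared 1 range at the bottom. In the libraries labelled Cre, the levels were 392 ± 47.5 for *Stat3*, 226 ± 11.7 for *Jak2*, 167 ± 17.8 for *Lifr*, 146 ± 22.0 for *Jak1*, 57.5 ± 9.68 for *Il6st*, 52.1 ± 20.7 for *Cntfr* and 10.0 ± 1.40 for *Socs2*. The pairs *Lifr* with *Jak1* and *Il6st* with *Cntfr* overlapped there too. At the bottom *Lif*, at 0 to 0.396, was under *Osmr*, at 1.78 to 2.41, without overlap.

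The message of the LIF-binding chain exceeded that of gp130 in every library. The ratio of *Lifr* to *Il6st* per kb was 3.05 ± 0.331 in control against 2.98 ± 0.746 in the libraries labelled Cre (SD, n = 3 each). *Lifr* also exceeded *Osmr*, the other partner of gp130, by 74.3-fold to 267-fold over the 6 libraries. The ratio of *Cntfr* to *Lifr* was 0.245 ± 0.074 and 0.317 ± 0.134, and that of *Jak2* to *Jak1* was 1.55 ± 0.0752 and 1.58 ± 0.291. Among the STAT genes, *Stat3* was 16.5 to 28.8 times the level of *Stat5b*, a STAT that growth hormone activates, over the 6 libraries. Control means per kb were 22.6 for *Stat2*, 20.1 for *Stat5b*, 23.9 for *Stat6* and 2.72 for *Stat5a*, whose reads cannot be told apart from those of *Stat3* where their exons overlap. The remaining kinases, *Tyk2* at 23.7 and *Jak3* at 0.667, were both under *Jak1* and *Jak2*, and the receptor genes *Il11ra1* at 8.11 and *Il6ra* at 1.04 were under *Lifr*, *Il6st* and *Cntfr*. Of these comparison genes, *Jak3* and *Il6ra* were under the limit for testing, and none of the others passed the threshold in the test with a pseudocount of 1. All of them were named after their values were seen.

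**Figure D4:**
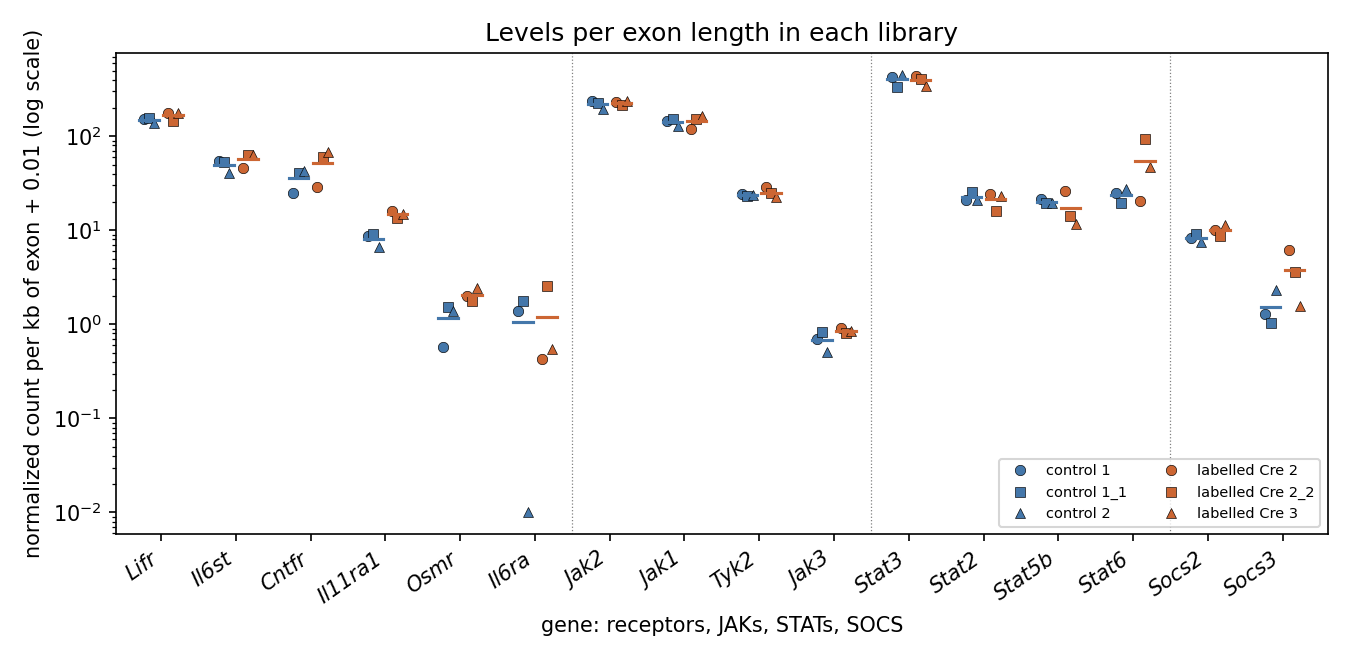
Normalized counts per kb of exon plus 0.01 (log scale) of receptor, JAK, STAT and SOCS genes in each library, with control in blue, libraries labelled Cre in orange and a bar at each group mean. *Stat3* is the highest, *Jak2*, *Lifr* and *Jak1* follow, and *Osmr*, *Il6ra*, *Jak3* and *Socs3* are at the bottom. Among the STAT genes, *Stat6* shows the widest spread in the libraries labelled Cre.

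The wider pathway was followed in 71 other genes on 7 lists of ligands, receptors, kinases and STATs, negative regulators, STAT3 target genes and genes that gate the astrocyte response. Of these, 47 were tested, 3 were called higher and 4 lower (limma, Benjamini-Hochberg), beside the 9.96% called over all genes. By log2 fold change, 28 were above 0 and 19 under it, with a median of 0.07. None of the 6 tested other JAK and STAT genes and none of the 12 tested negative regulators, which are SOCS, PIAS and phosphatase genes, passed the threshold in either direction with limma. At an unadjusted p under 0.05 there were 1 and 0, and edgeR and DESeq2 called 0 on both lists as well.

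Among the other ligands, those named here were picked after their values were seen. *Clcf1*, the gene of a further cytokine that binds CNTFR, was at 2, 1 and 3 reads in control against 2, 5 and 1 in the libraries labelled Cre. *Cntf* had 24.8, 32.2 and 28.0 normalized counts against 31.2, 26.7 and 40.3 (log2 fold change 0.19, adjusted p = 0.748), and *Il6* and *Osm* were listed at 0 in all 6 libraries.

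Of the other family receptors 1 of 3 was tested, *Il11ra1*, the interleukin-11 receptor, named after its values were seen. It had 38.5, 41.0 and 29.3 normalized counts in control against 71.3, 60.3 and 67.2 in the libraries labelled Cre (log2 fold change 0.86, limma adjusted p = 0.0512, and 0.0492 with a pseudocount of 5). The gene has near-identical copies in the mouse genome, so its reads are uncertain. Among 7 tested receptors outside the family that also signal through JAKs, *Ghr*, the growth hormone receptor that uses JAK2, rose from 9.18, 5.85 and 6.67 normalized counts in control to 26.3, 27.5 and 36.7. These are 10, 4 and 5 reads against 38, 32 and 41. The fold was 3.80 (log2 fold change 1.93, 95% interval 1.07 to 2.78, limma adjusted p = 0.0109), and it was called in all 15 alternatives that tested it. Its control libraries were all under the limit of 10, and with no filter its limma adjusted p was 0.023. *Socs2*, the inhibitor of this receptor, had a log2 fold change of 0.26 with an interval from -0.19 to 0.71.

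Of 16 genes listed as STAT3 targets, 12 were tested, 1 was called higher and 3 lower, beside the 9.96% of all tested genes called in either direction. The median log2 fold change was -0.11, with 5 above 0 and 7 under it. *Serpina3n*, a protease inhibitor gene that rises in reactive astrocytes, rose from 2, 2 and 1 reads in control to 21, 29 and 17 in the libraries labelled Cre. The ratio of reads relative to the totals was 9.10 (3.71 to 28.9, counting error only) with a limma adjusted p of 0.0112, and 0.0643 without Cre replicate 2_2. The gene passed the limit of 10 normalized counts only through the libraries labelled Cre, and with no filter its adjusted p was 0.0143. *Pim3*, a survival kinase gene, fell from 840, 610 and 826 normalized counts to 577, 473 and 390 (log2 fold change -0.66, adjusted p = 0.0365). *Ccnd1*, which encodes cyclin D1, fell from 20874, 16690 and 20484 to 13070, 14528 and 9165 (log2 fold change -0.68, adjusted p = 0.0376). *Timp1*, an inhibitor of matrix proteases, fell from 27.5, 32.2 and 46.7 to 12.5, 12.9 and 16.1 (log2 fold change -1.27, adjusted p = 0.041).

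These 3 lower calls were lost when some single libraries were left out, and in some other settings. With control replicates 1 and 1_1 averaged, the limma adjusted p was 0.0659 for *Pim3*, 0.0925 for *Ccnd1* and 0.0885 for *Timp1*. With no filter on low values it was 0.0232, 0.0512 and 0.0909 in the same order. For *Timp1* it was 0.0609 with Cre replicates 2 and 2_2 averaged. *Pim3* was at an adjusted p of 0.166 without control replicate 1, 0.146 without control replicate 2, 0.118 without Cre replicate 2_2 and 0.0771 without Cre replicate 3. *Ccnd1* was at 0.16 without control replicate 1, 0.0628 without 1_1, 0.142 without 2 and 0.0656 without Cre replicate 3, and 818 of its 3835 exon bases (21.3%) overlap *Oraov1* on the opposite strand. *Timp1* passed in 1 of the 6 fits with a library left out, without Cre replicate 3, and its adjusted p was 0.0916, 0.105 and 0.178 without control replicates 1, 1_1 and 2 and 0.0507 and 0.106 without Cre replicates 2 and 2_2. Each kept its direction in every alternative run. The immediate targets *Junb* (log2 fold change 0.09, adjusted p = 0.775) and *Fos* (0.12, 0.84) and the target *Myc* (-0.08, 0.913), named after their values were seen, did not pass.

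*Gfap*, the STAT3 target that marks astrocytes and whose promoter is shown above, was near the lower limit of detection in both groups. It had 0, 1 and 3 reads in control against 3, 12 and 2 in the libraries labelled Cre, a ratio of 2.89 (0.941 to 11.8, counting error only), with an adjusted p of 0.578 in limma with no filter. The other astrocyte markers were named after their values were seen. *S100b*, a calcium-binding protein gene, had 232, 255 and 227 normalized counts in control against 1706, 1979 and 2506 in the libraries labelled Cre (log2 fold change 3.10, limma adjusted p = 7.39e-07). *Slc1a2*, the glial glutamate transporter, was at 1.16 on the log2 scale (adjusted p = 0.000382) and *Aqp4*, the astrocytic water channel, at 1.64 (adjusted p = 0.0228), while *Aldh1l1* was at -1.65 (adjusted p = 0.065) and *Aldoc* at 0.15 (adjusted p = 0.481). Of the 5 tested astrocyte markers 3 were called higher and 0 lower, beside the 9.96% of all tested genes called.

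Of 9 listed genes that gate the astrocyte response, 7 were tested, 0 were called higher and 1 lower, a share near the 9.96% of all tested genes. *Dnmt1*, the maintenance DNA methyltransferase, which is known to keep STAT-binding sites of astrocyte genes methylated in early progenitors, fell from 3358, 3746 and 3786 normalized counts in control to 2410, 2174 and 2201. The groups were far apart, and the log2 fold change of -0.68 (limma adjusted p = 0.00406, standard error 0.11) was called in 16 of 16 alternatives. The corepressor gene *Ncor1*, whose protein holds TBL1XR1, was at 3787, 4168 and 4281 in control against 3837, 4331 and 4343 in the libraries labelled Cre (log2 fold change 0.03, adjusted p = 0.896). *Neurog2*, a proneural gene listed here as a repressor of the response, had 0 reads in each control library and 7, 23 and 22 in the libraries labelled Cre. This was at least 11.8-fold higher against a floor of 3 reads over the control group. *Neurog1*, listed with the same role, had 0 reads in every library of both groups. *Ncor1*, *Neurog1* and *Neurog2* were named after their values were seen.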

How the data were processed

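RNA-seq of 3 control libraries and 3 libraries labelled Cre was analyzed, grouped by the sample labels. The study's methods name TopHat, mm9 and mm10, and the submitters' processing notes name STAR 2.7, mm10 and DESeq2. The read counter, its strand setting and the annotation are not given in the sources used here. The values the authors deposited are normalized counts, a signal per gene made by dividing reads by 1 size factor per library. The authors' columns of fold changes, standard errors, test statistics and p-values were not used. One gene with a blank value was left out, and 873 genes had no name.

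The reads were recovered from the value of 1 read in each library: 100% of the values came out whole within a tolerance of 0.001, with totals of 7510615 to 14828100 reads, and the 10 most abundant genes held 15.9% to 22.9% of them. The test was limma (version 3.58.1, R version 4.3.3) with a trend, fitted to log2(normalized count + 1) of the 14840 genes whose mean reached 10 normalized counts, and p-values were adjusted by Benjamini-Hochberg with a threshold of 0.05. It called 704 genes higher and 774 lower. With 3 against 3 libraries, 0.1 is the smallest p an exact permutation test allows. Ratios of summed reads have exact 95% intervals that cover counting error only. Alternatives were recovered reads tested with edgeR 4.0.16 or DESeq2 1.42.0, a pseudocount of 0.5 or 5, no filter on low values, a minimum mean of 50, TMM scaling, averaging replicates 1 and 1_1 or 2 and 2_2, leaving out each library and, chosen after seeing the data, edgeR with no filter. The scripts were tested on simulated data. Exon lengths and exon overlaps between genes came from GENCODE M1 (mm9), used for these only. Promoters, motif matches and coordinates came from RefSeq on GRCm38.p6. *Socs2*, *Cebpd*, *Myc* and *Ccnd1* had no promoter entry.

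The 10 genes and the pathway and marker lists were chosen with earlier results of these data known. All 10 were to be named, with every gene of the other pathway lists past the threshold (up to 6 per list by size of change). The 3 genes most like the member with the largest change past the threshold were to be named too, and none were, since no member passed. Genes outside the rule are said to be named after their values were seen. Some genes of the pathway lists stay in the counts but are not reported here by name.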

Additional observations from a re-analysis of the deposited data

How the results depend on the processing

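Across 16 alternatives the 7 tested LIF/CNTF receptor and JAK-STAT3 genes gave 112 values, of which 104 kept their direction and their side of the threshold. With a library left out, the log2 fold change turned sign for *Jak1* (-0.059 to 0.16), *Jak2* (-0.037 to 0.10) and *Stat3* (-0.17 to 0.065), none of them called in any fit. The number of these genes called higher was 0 to 1 with a library left out, the 1 being *Cntfr* without Cre replicate 2, and the number called lower was 0 in every alternative. The count of other pathway genes called, 7 in the report, was 4 with a mean of at least 50, which removes genes from the test, 4 with control replicates 1 and 1_1 averaged, and 4 to 8 with a library left out. Over all genes the 1478 calls became 660 with these controls averaged, which leaves fewer samples, and 558 to 2396 with a library left out (558 without control replicate 1, 704 without 1_1, 643 without 2, 724 without Cre replicate 2_2 and 2396 without Cre replicate 2). The cause of the rise without Cre replicate 2 was not tested. DESeq2 called 1755 and edgeR 1483. TMM scaling moved the median log2 fold change by 0.0013. No paired analysis was possible because the groups share only the replicate number 2.

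Depth limits *Lif*, *Osmr*, *Socs3* and *Gfap*, which had 2 to 43 reads per group. Intervals of *Cntfr* and *Socs2* leave changes of up to 2.25-fold and 1.64-fold undetected here.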
